A study of Mus musculus with 3 samples.

Results

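Genes of chromatin remodelling and histone modification were followed between the start of the mouse kidney and the first day of its growth. They were taken by symbol from the array's annotation: histone deacetylases, sirtuins, histone methyltransferases and demethylases, SWI/SNF, ISWI and CHD remodellers, Polycomb and HP1 proteins, DNA methyltransferases, TET enzymes, bromodomain proteins and arginine methyltransferases. The rule matched 85 symbols, and 84 of them, out of 14047 genes in all, had a ratio on all 3 arrays. Chd5, a CHD remodeller, had none on array 2 and was left out, with log2 ratios of -0.69 on array 1 and 1.51 on array 3. The rule used names and not measured values.

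The study hybridised metanephroi of 11.5 days post coitum (dpc) against metanephric mesenchyme of 10.5 dpc on 3 two-colour arrays of the Compugen mouse oligonucleotide set. Both were microdissected from CD1 embryos, described as normal primary tissue from a pool of both sexes, and amplified RNA was labelled. The metanephric mesenchyme is the condensed tissue that the ureteric bud enters, and the metanephros holds both. Per the labels array 3 carried the opposite dye order (green/red) to the other arrays (red/green). Each value is a log2 ratio of the 2 channels on 1 array. The labels give no numerator, so a positive or negative ratio is assigned to neither tissue. They do not say whether the arrays carry separate dissections, so a p-value here reflects variation from array to array that may be purely technical. In dissected tissue, fewer cells of a type and less RNA per cell cannot be told apart.

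DNA in the nucleus is wound on histones, and these genes encode the enzymes that mark histones or DNA, the proteins that read the marks, and the motors that slide or evict nucleosomes. Acetylation, removed by deacetylases, and methylation of H3K4 go with active genes, while H3K27 methylation by Polycomb repressive complex 2 (PRC2) and H3K9 methylation bound by HP1 go with silent ones. In the developing kidney, class I deacetylases, PRC2 and SWI/SNF subunits are known to act in nephron progenitors.

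Array 3 stood apart from the other arrays. Over all genes the Spearman correlation was 0.501 between arrays 1 and 2, against 0.258 between arrays 1 and 3 and 0.208 between arrays 2 and 3. No label states whether array 3's ratios were already turned for the dye order before deposit. Its values are used with the sign deposited, and every mean and fold below rests on that sign. With that sign, array 3 lay on the side of array 1 in 60.9% of all genes and on that of array 2 in 59.0%. Whether it had been turned was not tested. Ratios carry no level, so the presence of the tissues' markers could not be read from them. Of 40 listed markers of mesenchyme, stroma, ureteric bud and other embryonic cells, 39 were measured, and their means ran from -4.96 for muscle actin Acta1 to 1.75 for the mesenchyme factor Wt1. All 4 muscle and somite markers, all 3 limb and flank markers and 3 of 5 endothelial markers lay on the negative side with an unadjusted p under 0.05. So did all 3 yolk sac and liver markers and 1 of 4 erythroid ones. All 3 renal stroma markers and both measured macrophage markers lay on the positive side in the same way, as did 1 of 8 mesenchyme markers. Of 5 ureteric bud and 2 neuron markers, 1 lay on each side. The part of such other cells in the chromatin gene ratios was not tested.

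Most chromatin genes lay close to 0. Their median log2 ratio was -0.0052 with quartiles at -0.23 and 0.17, where all genes had a median of -0.0019 and quartiles at -0.31 and 0.30. The median size of the ratio without its sign was 0.21 for the 84 chromatin genes and 0.31 for all genes. The SD between arrays had a median of 0.23 for the chromatin genes and 0.34 for all genes. On this scale 41 means were positive and 43 negative.

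The mean of the 3 arrays was tested against 0 with limma, in one fit over all 14047 genes. By limma with Benjamini-Hochberg adjustment 0 of the 84 chromatin genes passed an adjusted p of 0.05, and 0% of all genes did. Their lowest adjusted p was 0.149. An unadjusted p under 0.05 was reached by 13, which is 15.5% of them, where 19.6% of all genes were below it. Of the 13, 5 were positive (9.89% of all genes) and 8 negative (9.69% of all genes). All 3 arrays shared a sign in 37 chromatin genes, or 44.0%, and in 45.5% of all genes. These 37 were 17 positive ones (22.9% of all genes) and 20 negative ones (22.5% of all genes). With the sign of array 3 turned, the unadjusted count was 3 chromatin genes, none of them among the 13, where 5.55% of all genes were below the limit. The shares as deposited lie near those of all genes, so the account turns to single members.

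In the plot of the 13 members no gene has arrays on both sides of 0, which choosing them by a small p-value favours. A ratio of at least 1.5-fold to the same side on every array, a limit chosen after the values were seen, was met by 5 chromatin genes and by 6.7% of all genes. These were Prmt5, Prmt7 and Smarca4 on the negative side (3.3% of all genes) and Kmt2e and Smarca1 on the positive side (3.4% of all genes). Smarca4 and Kmt2e met it as averages of 2 probes. One Smarca4 probe fell short on every array, at -0.31, -0.29 and -0.30, and one Kmt2e probe fell short on array 3, at 0.54. The same 5, picked on these very values, kept an unadjusted p under 0.05 with any 1 array left out. Without array 1 they were the whole count of 5 of the 84 chromatin genes, where 8.23% of all genes were below the limit. Without array 2 there were 9, of which 7 were among the 13, beside 10.3% of all genes. Without array 3 there were 12, of which 9 were among the 13, beside 21.0% of all genes. With the sign of array 3 turned, the means were -0.68 for Prmt5, -0.28 for Prmt7, -0.29 for Smarca4, 0.47 for Kmt2e and 0.29 for Smarca1, with unadjusted limma p-values of 0.352 to 0.673.

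**Figure D1:**
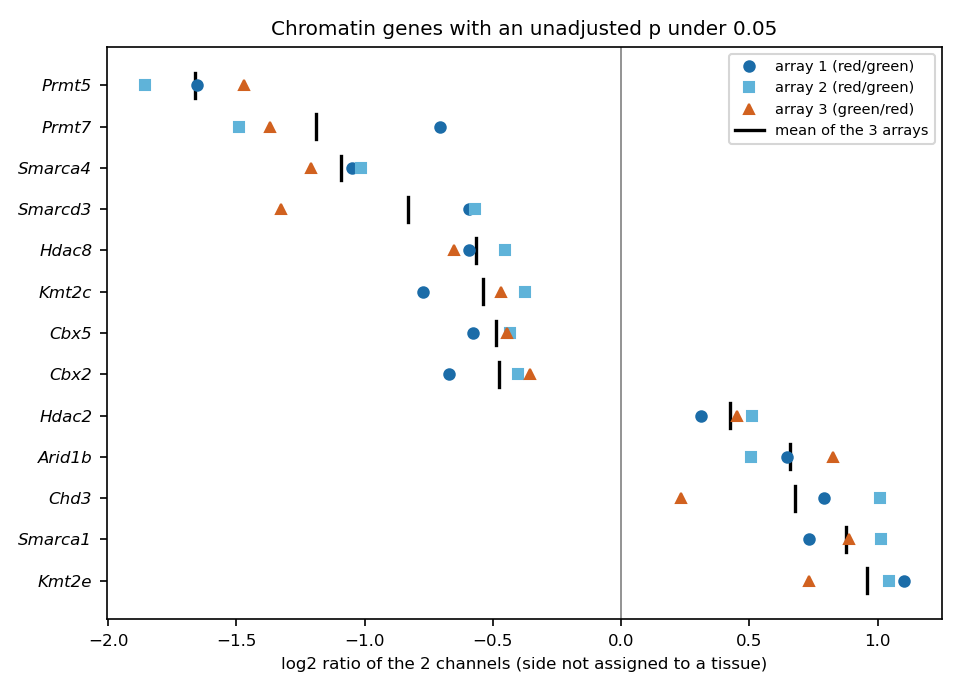
The 13 chromatin genes with an unadjusted p under 0.05 by limma, ordered by mean; points are the log2 ratio on each array and the bar is the mean of 3 arrays. With array 3 as deposited, Prmt5 lay lowest at a mean of -1.66 and Kmt2e highest at 0.96, and with its sign turned Prmt5 had -0.68 and Kmt2e 0.47, below Chd3 at 0.52.

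Arginine methyltransferases, which methylate histones and splicing proteins, held the chromatin gene with the most negative mean when array 3 is taken as deposited. With array 3 turned, Prmt1 at -2.14, Brd7 at -1.33, Chd1 at -0.83 and Smarca2 at -0.79 lay below it. Prmt5, the main enzyme for symmetric dimethylarginine, had log2 ratios of -1.65, -1.86 and -1.47 on arrays 1, 2 and 3. All arrays lay far below 0. The mean was -1.66 ± 0.19 (SD, n = 3), a difference of 3.16-fold, with a 95% confidence interval of -2.10 to -1.22 and an adjusted p of 0.149.

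Prmt7, which makes monomethylarginine, had -0.71, -1.49 and -1.37. Array 1 was the weakest and all were negative, with a mean of -1.19 ± 0.42, or 2.28-fold, and an adjusted p of 0.160. Prmt5 and Prmt7 were each read by 1 probe. Within each array Prmt5 lay below Prmt7, but the difference of -0.95, -0.37 and -0.10 was not stable. The other measured members did not follow. Prmt2 had a mean of 0.16 and Prmt3 of -0.04, each with arrays on both sides. Prmt1, the main enzyme for asymmetric dimethylarginine, had -3.88, -0.33 and 2.19. Its arrays ran from the lowest value of any chromatin gene to the highest but one, and its mean of -0.68 has an interval of -4.31 to 2.96. The median of the 5 genes was -0.68, which is the value of Prmt1 itself.

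SWI/SNF complexes slide and evict nucleosomes with 1 of 2 motor subunits, Smarca4 (BRG1) or Smarca2 (BRM), and ISWI complexes space nucleosomes with Smarca5 or Smarca1. Smarca4 had log2 ratios of -1.05, -1.01 and -1.21, a mean of -1.09 ± 0.10 (2.13-fold, interval -1.48 to -0.70, adjusted p of 0.149). The arrays agreed closely, but the 2 probes averaged here differed in size. One had -1.80, -1.74 and -2.12, and the other had -0.31, -0.29 and -0.30. Both lay on the negative side on every array, at means of -1.88 and -0.30. With the steadier probe alone the unadjusted p of Smarca4 was 0.0830 and the call at 0.05 ended.

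Smarca1, the ISWI motor also called SNF2L, lay on the other side, with 0.73, 1.01 and 0.89. No array was near 0, and the mean was 0.88 ± 0.14, or 1.84-fold, with an interval of 0.47 to 1.29 and an adjusted p of 0.157. Its relative Smarca5 (SNF2H) had -0.23, 0.02 and 0.06. The within-array difference, Smarca1 minus Smarca5, was 0.97, 0.99 and 0.83, a mean of 0.93 ± 0.09. This pair and the others below were chosen after the values were seen and are described without a test. Each gene in them was read by 1 probe. Over all genes with several probes, the probe means of 1 gene lay on opposite sides in 53.8%, with a median gap of 0.57. Differences between single probes may therefore not be differences between genes.

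A similar split appeared between Arid1b and Arid1a, subunits that take the same place in alternative BAF forms of SWI/SNF. Arid1b had 0.65, 0.51 and 0.82, with a mean of 0.66 ± 0.16 and an adjusted p of 0.173, and its mean was 0.11 with array 3 turned. Arid1a had -0.38, -0.24 and -0.35, with a mean of -0.32 ± 0.07 and an unadjusted p of 0.0802. The groups of 3 values did not overlap, and Arid1b minus Arid1a was 1.02, 0.74 and 1.17 on the 3 arrays.

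Among the BAF60 subunits, Smarcd3, known as a heart and muscle form, had -0.60, -0.57 and -1.33. Array 3 lay farthest from 0, and the mean was -0.83 ± 0.43 with an adjusted p of 0.193. Array 3 carries the opposite dye order, and with its sign turned the mean of Smarcd3 was 0.054. The muscle markers named above lay on the same side, and their part in this ratio was not tested. Smarcd1 had a mean of -0.32 ± 0.10 and was negative on every array, while Smarcd2 had 0.05 ± 0.18. The core subunits lay nearer 0: Smarcc1 had 0.06, Smarcb1 had -0.28 and Smarcc2 had 0.31. Smarce1 was negative on every array with a mean of -0.29, from probes with means of -0.67 and 0.10. Smarca2 had -2.38, 0.61 and 0.60, an array 1 value set by 1 of its 2 probes at -4.65. In all, 5 of the 13 SWI/SNF and ISWI genes had positive means and 8 negative ones, with a median of -0.28.

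The sequence before the gene start is shown for 2 members of each side with an unadjusted p under 0.05, chosen after their values were seen. Each is the 250 bases upstream of the RefSeq start on GRCm38.p6, 5′ to 3′ on the gene's strand, at chr14:54517471-54517720 (minus strand) for Prmt5, chr9:21615919-21616168 (plus) for Smarca4, chrX:47892614-47892863 (minus) for Smarca1 and chr10:36974294-36974543 (plus) for Hdac2. Capitals mark 3 short motifs on either strand: CCAAT, the GC box GGGCGG, and CGGAAG, the core that ETS factors bind.
Prmt5: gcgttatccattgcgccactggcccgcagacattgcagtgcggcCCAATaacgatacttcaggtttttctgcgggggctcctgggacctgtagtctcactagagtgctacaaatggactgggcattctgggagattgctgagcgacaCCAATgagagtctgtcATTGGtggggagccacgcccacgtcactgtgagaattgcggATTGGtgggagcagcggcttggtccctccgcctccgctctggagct
Smarca4: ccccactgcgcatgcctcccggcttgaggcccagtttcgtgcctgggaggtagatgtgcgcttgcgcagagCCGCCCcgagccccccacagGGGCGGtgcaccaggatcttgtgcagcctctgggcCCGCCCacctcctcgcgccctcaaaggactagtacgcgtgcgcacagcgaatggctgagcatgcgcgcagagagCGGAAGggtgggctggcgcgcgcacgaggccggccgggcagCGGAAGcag
Smarca1: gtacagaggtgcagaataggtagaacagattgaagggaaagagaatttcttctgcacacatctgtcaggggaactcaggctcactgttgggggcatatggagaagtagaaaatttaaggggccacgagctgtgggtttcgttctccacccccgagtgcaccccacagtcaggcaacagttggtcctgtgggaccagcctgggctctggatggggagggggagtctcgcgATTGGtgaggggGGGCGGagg
Hdac2: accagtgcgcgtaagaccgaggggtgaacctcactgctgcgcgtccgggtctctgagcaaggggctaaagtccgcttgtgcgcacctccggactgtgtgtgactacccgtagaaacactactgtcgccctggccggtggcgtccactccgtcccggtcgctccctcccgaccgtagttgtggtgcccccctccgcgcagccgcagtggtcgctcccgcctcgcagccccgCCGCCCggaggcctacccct

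The Prmt5 window held 4 CCAAT matches and no GC box, and the Smarca4 window held 3 GC boxes and 2 ETS cores. Smarca1 had 1 CCAAT and 1 GC box, and Hdac2 had 1 GC box. CG dinucleotides numbered 13, 25, 6 and 27 in the windows of Prmt5, Smarca4, Smarca1 and Hdac2. RefSeq gave windows for 70 of the 84 chromatin genes, 98 windows in all. Of these 68.4% held GGGCGG, 32.7% held CCAAT and 16.3% held CGGAAG, against 42.6%, 35.4% and 17.1% of 21262 windows of protein-coding genes. A chromatin gene window held a median of 20 CG dinucleotides, and a protein-coding one held 10. The motif shares were not matched for CG content, and a gene with several starts counts more than once. The letters are a description and show no binding.

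CHD remodellers, chromodomain helicases of which Chd3 is a motor of the NuRD complex, numbered 6. Of these 5 had a positive mean, where 6999 of all 14047 genes did, and the median was 0.39. The 3 arrays were all positive for 3 of them, and for 22.9% of all genes. One of the 6, Chd3, had an unadjusted p under 0.05. Chd3 had 0.79, 1.01 and 0.23, a mean of 0.68 ± 0.40 with an adjusted p of 0.224. One of its probes was positive on every array, at 1.32, 1.38 and 0.91, and the other had 0.26, 0.64 and -0.45. Without array 1 its unadjusted p was 0.149 and without array 2 it was 0.139. Chd8, a remodeller tied to beta-catenin signalling, had 0.16, 0.40 and 0.92, and Chd2 had 0.26, 0.67 and 0.23. Both had all arrays above 0 and missed the unadjusted limit, at 0.0813 for Chd8 and 0.0847 for Chd2. The positive Chd2 average came from 1 of its 2 probes, with a mean of 0.85 where the other had -0.08. Chd9 had 0.56, 0.85 and -0.21, where only array 3 lay below 0. Chd6 had a mean of 0.07 from probes with means of -0.26 and 0.41. Chd1 had 0.12, -1.71 and 0.91, the low array being set by 1 probe at -3.91.

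Of the 4 other ARID proteins, DNA-binding partners of several complexes, 0 had an unadjusted p under 0.05 by limma and 0 an adjusted one. Arid4b of the Sin3 complex was positive on every array, with a mean of 0.43 ± 0.32. Arid3a was negative on every array, with -0.69, -0.19 and -0.33. Bromodomain proteins, readers of acetylated histones, had means from -0.02 for Brd2 to 0.25 for Brd7, which had -1.54, -0.08 and 2.38. Brd1 had 0.27, 0.13 and 0.12, small ratios that lay on 1 side.

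**Figure D2:**
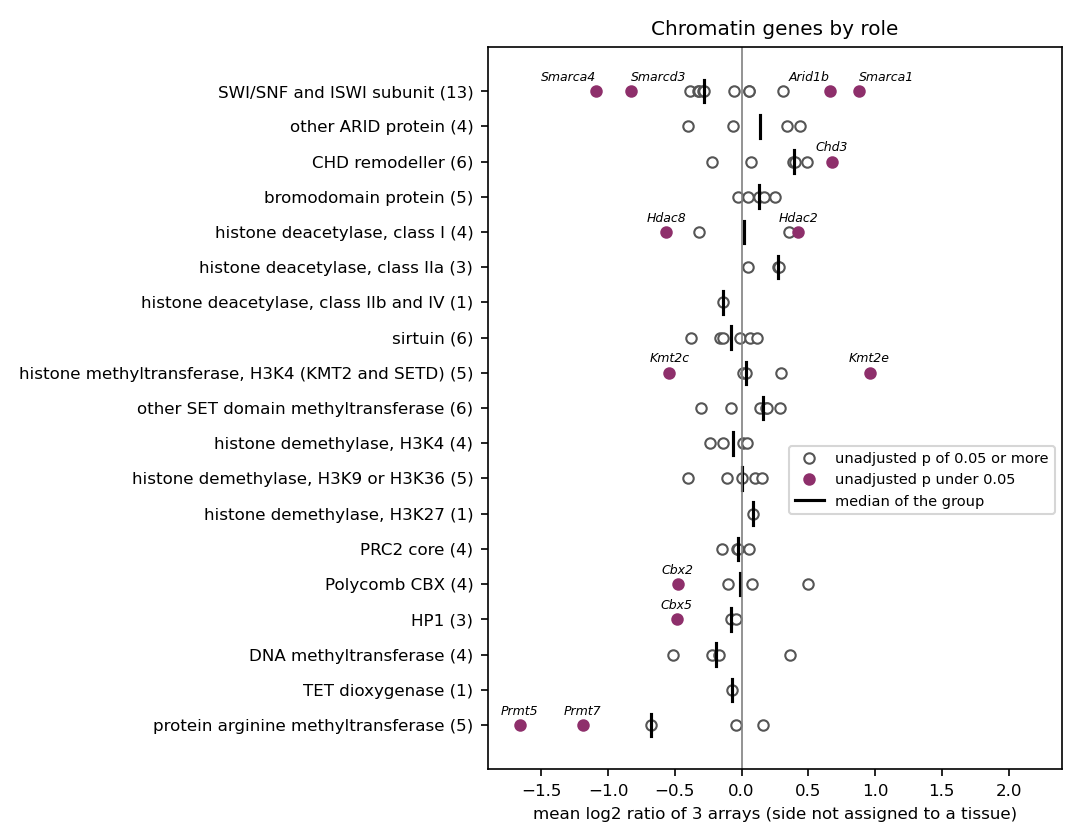
Mean log2 ratio of each of the 84 chromatin genes, grouped by role with the number of genes in brackets; filled points have an unadjusted p under 0.05 by limma and the bar is the group's median. Most points lie between -0.5 and 0.5, and the arginine methyltransferase and SWI/SNF rows hold the most negative ones.

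Class I histone deacetylases, nuclear enzymes of which Hdac1 and Hdac2 serve the Sin3, NuRD and CoREST complexes, lay on both sides, and each of the 4 kept its sign on every array. Hdac8 had -0.59, -0.45 and -0.65, a mean of -0.57 ± 0.10 with an adjusted p of 0.181. Hdac2 had 0.31, 0.51 and 0.45, a mean of 0.43 ± 0.10 with an adjusted p of 0.233. The 3 values of one gene did not come near those of the other, and Hdac2 minus Hdac8 was 0.90, 0.96 and 1.10. Hdac1, the close relative of Hdac2, had 0.05, 0.73 and 0.28 with a mean of 0.36 ± 0.35. Hdac2 minus Hdac1 was 0.26, -0.22 and 0.17, so the pair could not be separated. Hdac3, the enzyme of the NCoR complex, had -0.35, -0.05 and -0.54.

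The class IIa enzymes, which shuttle between nucleus and cytoplasm, had positive means of 0.28 for Hdac9, 0.27 for Hdac5 and 0.05 for Hdac7. Hdac9 was the 1 of them with every array above 0, at 0.45, 0.20 and 0.20. Hdac6, the cytoplasmic tubulin deacetylase, had -0.17, -0.21 and -0.02. Sirtuins, the NAD-dependent deacylases, showed little. Sirt1 had a mean of 0.12 ± 0.08 and Sirt2 of -0.16 ± 0.08, each on 1 side throughout. Sirt3 had 0.06 and Sirt6 had -0.14, with arrays on both sides. Sirt5, a mitochondrial desuccinylase, had 1.76, -0.49 and -1.30, which average to -0.01. Of the 6 sirtuins 0 had an unadjusted p under 0.05 by limma and 0 an adjusted one.

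Kmt2e (MLL5), a protein of the MLL family with a PHD finger and a SET domain, had the most positive mean of the 84 chromatin genes with array 3 as deposited. With array 3 turned, genes such as Sirt5 at 0.86 and Chd3 at 0.52 lay above its 0.47. It had 1.10, 1.04 and 0.73, a mean of 0.96 ± 0.20 (1.94-fold, interval 0.52 to 1.40, adjusted p of 0.157). Both of its probes were positive on every array, at means of 1.16 and 0.76. It is the one gene of those with 2 probes in which each probe alone had an unadjusted p under 0.05 on the same side, at 0.00247 and 0.0119.

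Kmt2c (MLL3), an enhancer H3K4 methyltransferase, had -0.77, -0.38 and -0.47 after averaging, with a mean of -0.54 ± 0.21 and an adjusted p of 0.210. Its probes did not share that steadiness. One had -0.13, -1.26 and -0.55, and the other had -1.42, 0.51 and -0.39. The unadjusted p was 0.0813 and 0.370 for the single probes, and 0.0641 to 0.172 when an array was left out. Kmt2a (MLL1), which maintains Hox gene expression, had 0.32, 0.23 and 0.34, with an unadjusted p of 0.0965. Kmt2b had a mean of 0.03 and Setd7 of 0.01.

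The other SET domain enzymes had means from -0.31 to 0.29. Kmt5a, which methylates H4K20, was negative on every array with a mean of -0.31 ± 0.31. Setd2, which places H3K36 trimethylation, had a mean of 0.18 ± 0.03 that hid opposite probes. One probe had 0.68, 0.55 and 0.75, and the other had -0.30, -0.25 and -0.33. The gap between the probes exceeded the spread of each between arrays.

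Demethylases undo these marks. Kdm1a (LSD1), which acts on H3K4, had -0.18, -0.11 and -0.42. All were negative, with a mean of -0.24 ± 0.16 and an unadjusted p of 0.184. Of the JmjC enzymes for H3K4, Kdm5a had a mean of 0.04, Kdm5b of 0.01 and Kdm5c of -0.14, and the arrays of each lay on both sides. Kdm4b, an H3K9 demethylase, had -0.23, -0.13 and -0.85, with array 3 farthest from 0. Kdm7a was positive on every array at a mean of 0.15 ± 0.17. Kdm3a had 0.06, -0.12 and 0.06, the mean nearest to 0 of the chromatin genes. Kdm6a (UTX), which removes H3K27 methylation, had -0.71, 1.07 and -0.10. Of these 10 demethylases 0 had an unadjusted p under 0.05 by limma and 0 an adjusted one.

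PRC2, which writes H3K27 methylation, was close to 0 in all 4 measured core genes. Ezh2, its main catalytic subunit in dividing cells, had -0.15, -0.13 and -0.16. The values were nearly equal, and the mean was -0.14 ± 0.02 with an interval of -0.52 to 0.23. Ezh1 had -0.04 ± 0.06, Suz12 had -0.02 ± 0.20 and Eed had 0.06 ± 0.06. The 4 intervals together spanned -0.52 for Ezh2 to 0.44 for Eed, and a log2 ratio of 1 to either side lay outside each. Each gene was read by 1 probe, and the intervals hold only the variation between arrays. They describe these probes and cannot exclude a larger change of the genes.

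The readers of Polycomb and heterochromatin marks held 2 of the negative genes. Cbx2, a chromodomain subunit of PRC1, had -0.67, -0.40 and -0.35, with a mean of -0.48 ± 0.17 and an adjusted p of 0.224. Cbx7 had 0.88, 1.02 and -0.41, where array 3 lay on the other side from both red/green arrays. Cbx6 had a mean of 0.08 and Cbx8 of -0.10. Of the HP1 proteins, which bind methylated H3K9, Cbx5 (HP1 alpha) had -0.58, -0.43 and -0.45. The mean was -0.49 ± 0.08 with an adjusted p of 0.201. Cbx1 and Cbx3 had means of -0.08 and -0.04 with arrays on both sides. Cbx5 minus Cbx3 was -0.45, -0.39 and -0.50. With any 1 array left out, Cbx5 had an unadjusted p of 0.0537 to 0.158 and Cbx2 of 0.0581 to 0.206. Hdac2 then had 0.0909 to 0.153 and Hdac8 0.0498 to 0.107. Arid1b without array 1 had 0.0769, and Smarcd3 without array 1 had 0.0582.

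DNA methyltransferases copy or place 5-methylcytosine, and 0 of 4 had an unadjusted p under 0.05 by limma or an adjusted one. Dnmt1, the maintenance enzyme, had -0.14, -0.06 and -0.47. Dnmt3a, a de novo enzyme, had -0.86, 0.06 and -0.73, and Dnmt3b had 0.01, -0.10 and -0.41. Dnmt3l, a cofactor without catalytic activity, had 0.25, 0.87 and -0.02. The means ran from -0.51 for Dnmt3a to 0.37 for Dnmt3l. A second Dnmt1 probe had no value on array 2 and was not averaged, and it read 0.44 and 0.76 on arrays 1 and 3, the side opposite to the first. Tet1, which oxidises 5-methylcytosine, had -0.95, 1.38 and -0.63.

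The arrays disagreed most for 6 genes, Prmt1, Brd7, Smarca2, Sirt5, Chd1 and Tet1, which are the chromatin genes with an SD over 1. This is 7.14% of them, and 12.9% of all genes had such an SD. Each had an array value of more than 0.9 in size on both sides of 0, apart from Smarca2, whose positive values were 0.61 and 0.60. Among the chromatin genes the same sign on arrays 1 and 2 was found for 61. Array 3 shared it in 37 of these, or 60.7%, against 63.9% for all genes. Where both red/green arrays had at least 0.2 in size there were 26 chromatin genes, and array 3 shared the sign in 73.1%, against 67.6% for all genes. Across the 84 genes, which are not independent replicates and share each array's labelling, the Spearman correlation was 0.448 between arrays 1 and 2. It was 0.276 between arrays 1 and 3 and 0.296 between arrays 2 and 3.

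**Figure D3:**
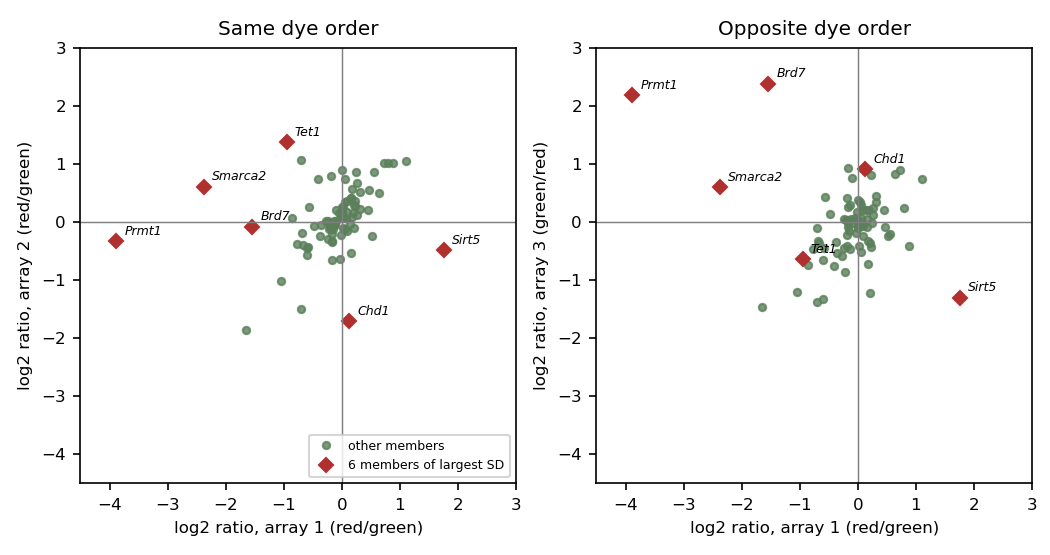
Log2 ratio of the 84 chromatin genes on array 1 against array 2 (left, same dye order) and array 3 (right, opposite dye order); diamonds are the 6 genes with an SD over 1. Prmt1 moves from -0.33 on array 2 to 2.19 on array 3.

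Of the 84 genes 14 had 2 probes with a value on every array, and in 7 of them the probe means lay on opposite sides. Over all genes with several probes this was so in 53.8% of 916. The median gap between the probe means was 0.59 for the chromatin genes and 0.57 for all genes. Besides Setd2, Chd2 had a probe at 0.66, 1.33 and 0.55 and one at -0.15, 0.01 and -0.09. Smarce1 had a probe at -0.35, -0.96 and -0.71 and one at 0.29, -0.33 and 0.34. Chd6 had one at 0.50, 0.58 and 0.14 and one at -0.45, -0.06 and -0.28. In Setd2 and Chd6 every array put the probes on opposite sides, so the averaged ratios of these genes describe neither probe.

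**Figure D4:**
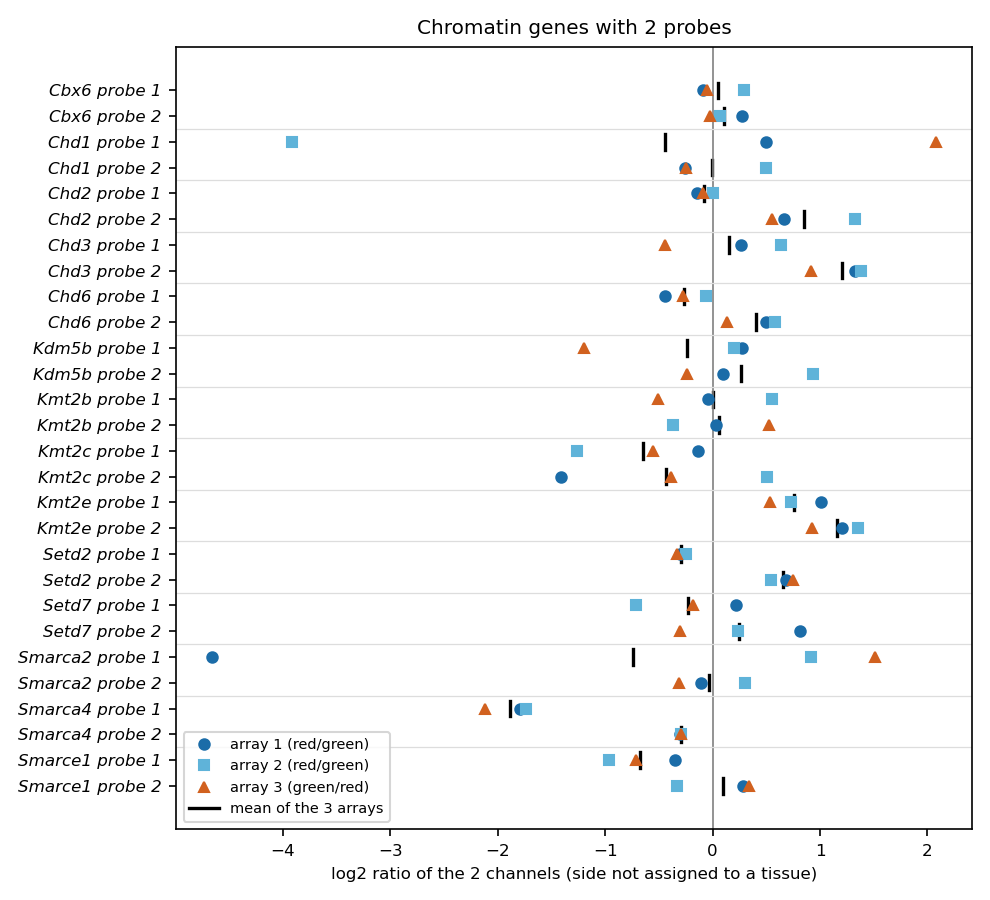
Log2 ratio on each array of both probes of the 14 chromatin genes with 2 probes; the bar is the probe's mean. The probes of Kmt2e and of Smarca4 lie on 1 side together, and those of Setd2 lie on opposite sides on every array.

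Partner genes of the same complexes, 91 measured genes from a list of cofactors, chaperones and further enzymes, were read from the same fit. Of these 17 had an unadjusted p under 0.05, or 18.7%, beside 19.6% of all genes. They were 7 positive and 10 negative genes, beside 9.89% and 9.69% of all genes, and 0 had an adjusted p under 0.05 by limma. Of the 10 histone chaperones, which hand histones to DNA, 1 was positive and 2 were negative at that limit, and the group's median was 0.0093. Chaf1b, a subunit of the replication-coupled assembly factor CAF-1, had -1.16, -1.45 and -1.58, a mean of -1.40 ± 0.21 with an adjusted p of 0.149.

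The paralogs of the chaperone Asf1, each read by 1 probe, lay on opposite sides. Asf1b, the form of dividing cells, had -0.91, -0.76 and -1.13, and Asf1a had 0.87, 0.78 and 0.65. No array of one lay near those of the other. Actl6a, an actin-related BAF subunit of progenitor cells, lay on the side of Smarca4 with -1.06, -0.76 and -1.31. Atrx, a remodeller that places histone H3.3, lay on the side of Smarca1 with 0.78, 0.90 and 0.82.

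Ring1, a ubiquitin ligase of PRC1, had -0.46, -0.78 and -0.72, and Rcor2 of the CoREST complex had -0.56, -0.48 and -1.09. Pcgf3, a variant PRC1 subunit, had 0.90, 1.32 and 0.40. Of the 20 Polycomb partners 4 were positive and 2 negative at an unadjusted p under 0.05. Of the 14 corepressor and NuRD partners 2 were negative and 0 positive at that limit, and 11 had a negative mean, where 7048 of all 14047 genes did. These counts by role stand beside 9.89% positive and 9.69% negative over all genes. Of 8 histone acetyltransferases 0 had an unadjusted p under 0.05 by limma or an adjusted one.

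**Figure D5:**
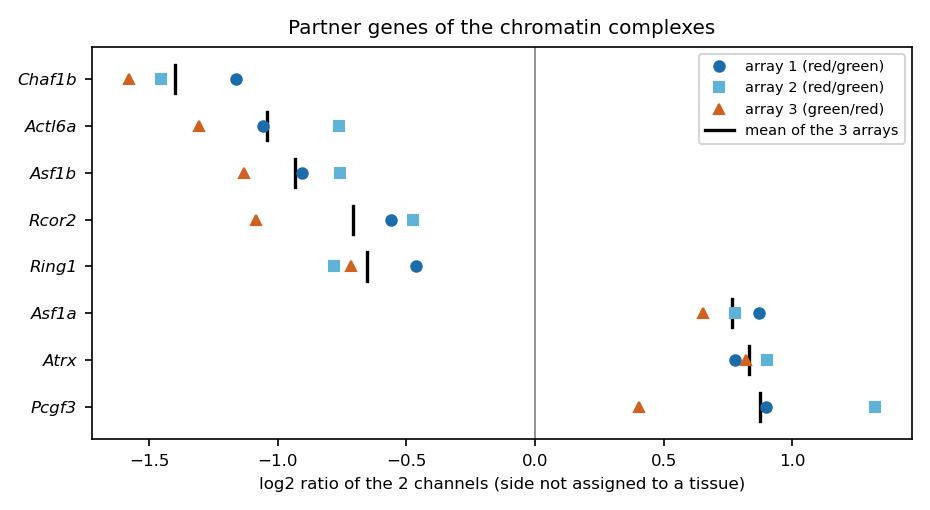
Log2 ratio on each array of the 8 partner genes of smallest unadjusted p by limma; the bar is the mean of 3 arrays. Chaf1b lies lowest at -1.40 and Pcgf3 highest at 0.87. All 3 arrays of each gene lie on 1 side of 0, which choosing by smallest p favours.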

How the data were processed

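The authors deposited log2 ratios of the 2 channels, per the labels' protocols read with Imagene 5.5 and normalized in R, first within print tips by lowess and then across the arrays. The labels also give a lowess fit over 20% of the data and a floor of 10 for the control channel. The numerator, genome build and spot intensities are not given in the sources used here. How far spots lay above background is therefore unknown. Precision is limited by having 3 arrays. Probes of 1 symbol in the platform annotation with a value on every array were averaged per array. Of 98 chromatin probes, 29 carried an accession found in RefSeq, and all 29 gave the annotated symbol. The mean was tested against 0 with lmFit and eBayes of limma 3.58.1 (R 4.3.3), two-sided, over 14047 genes, after a test on simulated data. Array 3 was used as deposited. Plots used Matplotlib 3.10.9. Members and lists were chosen with earlier results of these data known. Array values are given for members with an unadjusted p under 0.05 and 1 sign (up to 15 a side), the smallest p in each role, the 6 largest SDs and up to 8 partner genes, and others named were chosen after their values were seen.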

Additional observations from a re-analysis of the deposited data

How the results depend on the processing

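No chromatin gene passed an adjusted p of 0.05 under any alternative run, by limma, so the count was 0 throughout, and the lowest adjusted p was 0.0764 with array weights. The count at an unadjusted p under 0.05, 13 as reported, was 12 to 18 under the dye term, median centring, equal scale, single probes, values on at least 2 arrays, robust variances, array weights and averages that keep incomplete probes, the last added after seeing the data. In these runs 18.0% to 28.3% of all genes were below the limit. The 18 came with array weights, where the share of all genes was 28.3%. With array 3 turned the chromatin gene count was 3, none of them among the 13, beside 5.55% of all genes. With an array left out it was 5 to 12, beside 8.23% to 21.0% of all genes. The count with the same sign on every array was 24 with array 3 turned, and 47 to 61 with an array left out, where fewer arrays must agree. The 24 are those of the 61 with 1 sign on arrays 1 and 2 where array 3 as deposited did not share it. Over all genes array 3 shared it in 63.9% of such genes. With an array left out, 59.0% to 71.1% of all genes had 1 sign. The median was -0.046 to 0.046 with an array left out. Of the 13, 12 kept their sign under all 12 alternatives, and Smarcd3 had 0.054 with array 3 turned. As the 13 had 1 sign on every array, leaving out, weighting or rescaling arrays and the dye term could not turn a sign. For the same reason, turning array 3 had to bring the means of the 13 nearer to 0. The means then lay between -0.68 for Prmt5 and 0.52 for Chd3. The dye term ended the calls of Cbx2, Hdac2 and Kmt2c at means of -0.45, 0.43 and -0.52, close to the -0.48, 0.43 and -0.54 reported, with 1 more term fitted to the same arrays. Other signs turned among genes whose arrays disagree or lie near 0. With array 3 turned, Brd7 had -1.33, Kdm1a 0.041, Kdm4b 0.17, Sirt5 0.86 and Tet1 0.35. With the dye term Chd1 had 0.060 and Prmt1 0.041. With equal scale Sirt5 had 0.024. With array weights Brd7 had -0.68, Kdm6a -0.23 and Sirt5 0.84. With an array left out, the ranges crossed 0 for Brd7 (-0.81 to 1.15), Chd1 (-0.79 to 0.52), Kdm6a (-0.40 to 0.49), Prmt1 (-2.11 to 0.93), Sirt5 (-0.90 to 0.63, and 0.23 without array 2), Smarca2 (-0.89 to 0.61) and Tet1 (-0.79 to 0.37, and 0.21 without array 3). The cause was not tested. Every array holds both tissues, so the test of the mean ratio against 0 is already paired by array. With 1 group of arrays no other pairing was made.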

Other observations

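Of the 84 chromatin genes 5 lie on the X chromosome. They lay on both sides, from Hdac8 at -0.57 and Kdm5c at -0.14 through Hdac6 at -0.14 and Kdm6a at 0.09 to Smarca1 at 0.88. Xist, the RNA that silences an X chromosome in female cells, had 1.66, 1.36 and 1.66 on the 3 arrays. The embryos were a pool of both sexes per the labels, and the part of the sex ratio in these values was not tested.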
